A study of Mus musculus with 8 samples.

Results

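The 9 genes described here encode Tudor domain proteins of germ granules and were chosen by name: Tdrd1, Tdrd3, Tdrd5, Tdrd6, Tdrd7, Tdrd9, Tdrkh, Rnf17 and Stk31. All non-control probes carrying 1 of these names were taken, which gave 12 of the 55681 non-control probes on the array: 3 for Tdrd5, 2 for Tdrd3 and 1 for each of the other genes. All 12 passed the background filter (both arrays of 1 or more groups well above background) and were tested among 37810 probes. RNA came from testes of C57BL/6 mice, which were Ip6k1+/+ (wild type) or Ip6k1-/- (knockout) littermates born to Ip6k1+/- parents, at 17 or 26 days postpartum (dpp). Each of the 4 groups held 2 arrays (n = 2), labelled as biological replicates, and each array carried 1 Cy3-labelled sample. No treatment is named, the deleted part of Ip6k1 is not given in the sources used here, and nothing in the labels says whether an array held RNA of 1 animal or of several. Ip6k1 encodes an inositol hexakisphosphate kinase, so the design asks how its loss alters testis RNA before and after the first spermatids appear.

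Germ granules are bodies of RNA and protein in the cytoplasm of germ cells: the intermitochondrial cement of spermatogonia and spermatocytes and the chromatoid body of round spermatids. A Tudor domain binds methylated arginine or lysine, and in germ granules its best known ligands are the methylated arginines of PIWI proteins, which carry the small RNAs (piRNAs) that silence transposons. Members with several Tudor domains act as scaffolds of these granules, and the loss of many of them in mice leads to male sterility. Tdrd3 stands somewhat apart in this group, since it is known as a broadly expressed reader of methylated arginine on histones and as a partner of a topoisomerase, and it is not restricted to germ cells.

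The probes are 60 bases long and lie at the following mm9 positions, as the scanner files give them. Tdrd6 is probed on chromosome 17 at 43759143 to 43759202 (minus strand), Tdrd7 on chromosome 4 at 46047484 to 46047543, Tdrd9 on chromosome 12 at 113305826 to 113305885 and Tdrd1 on chromosome 19 at 56940470 to 56940951. The Tdrd1 probe spans 482 bases of the genome, more than its own length. Tdrkh is probed on chromosome 3 at 94235285 to 94235344, Rnf17 on chromosome 14 at 57143690 to 57143749, Stk31 on chromosome 6 at 49397301 to 49397360 and Tdrd3 on chromosome 14 at 87945177 to 87945236 and at 87945240 to 87945299. The Tdrd5 probes lie on chromosome 1 (minus strand) at 158185508 to 158185567, 158185528 to 158185587 and 158197156 to 158197214, and the first 2 of them share 40 bases. Without a genome of this build, the exon or UTR that each probe lies in was not assigned. The probes of Tdrd6, which had the largest difference between ages of the 12 probes, and of Tdrd9, the smallest that passed the test, read 5′ to 3′ as deposited:
Tdrd6: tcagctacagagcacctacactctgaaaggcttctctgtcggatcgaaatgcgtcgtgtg
Tdrd9: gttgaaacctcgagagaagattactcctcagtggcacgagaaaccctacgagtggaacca

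Most members differed between ages in one direction, so the 250 bases before their RefSeq starts (GRCm38.p6) were searched on both strands for letters known as binding motifs of germ cell regulators. The core AACNG is bound by MYB proteins such as Mybl1, a regulator of meiotic piRNA genes, and the E-box CACGTG is bound by many basic helix-loop-helix proteins. Windows were at hand for 7 of the 9 genes, 12 windows in all, and Tdrd6 and Rnf17 had none. The E-box was in the windows of 3 genes (Tdrd1, Tdrd9 and Stk31), whereas 6.86% of all 27025 genes and 6.02% of all 32851 windows hold it. The MYB core was in windows of 6 of the 7 genes, and 76.8% of all genes hold it as well. The CRE TGACGTCA was in 0 of the 12 windows and is in 1.55% of all windows. These are matches of letters and were not tested for binding. CACGTG contains the pair CG, which occurs 8 to 26 times in the member windows with an E-box, against a median of 6 over all windows. The shares were not matched for this content or for the number of windows per gene. Of the 5 windows with an E-box, 1 is shown for each of the 3 genes (those left out belong to other starts of Tdrd1 and Stk31 and overlap the ones shown), with that of Tdrkh, the gene whose difference between ages had the opposite sign; capitals mark the E-box and the MYB core, which do not overlap here. The windows are chr19:56825959-56826208 (plus strand, Tdrd1), chr12:111971309-111971558 (plus strand, Tdrd9), chr6:49395289-49395538 (plus strand, Stk31) and chr3:94412994-94413243 (plus strand, Tdrkh):
Tdrd1: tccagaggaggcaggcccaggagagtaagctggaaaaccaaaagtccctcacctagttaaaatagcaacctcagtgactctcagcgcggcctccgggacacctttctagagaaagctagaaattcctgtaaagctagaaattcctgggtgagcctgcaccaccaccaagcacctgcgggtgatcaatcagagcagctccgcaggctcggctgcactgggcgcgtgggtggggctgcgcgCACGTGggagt
Tdrd9: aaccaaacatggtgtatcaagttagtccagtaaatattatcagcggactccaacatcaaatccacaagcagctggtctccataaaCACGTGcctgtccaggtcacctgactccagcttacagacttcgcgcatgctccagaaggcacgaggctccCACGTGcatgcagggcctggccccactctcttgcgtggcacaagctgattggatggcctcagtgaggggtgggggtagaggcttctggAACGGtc
Stk31: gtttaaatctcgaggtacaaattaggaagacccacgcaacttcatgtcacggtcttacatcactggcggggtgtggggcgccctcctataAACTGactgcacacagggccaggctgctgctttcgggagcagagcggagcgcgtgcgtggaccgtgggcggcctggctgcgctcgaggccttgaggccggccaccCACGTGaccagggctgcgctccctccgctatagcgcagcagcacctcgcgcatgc
Tdrkh: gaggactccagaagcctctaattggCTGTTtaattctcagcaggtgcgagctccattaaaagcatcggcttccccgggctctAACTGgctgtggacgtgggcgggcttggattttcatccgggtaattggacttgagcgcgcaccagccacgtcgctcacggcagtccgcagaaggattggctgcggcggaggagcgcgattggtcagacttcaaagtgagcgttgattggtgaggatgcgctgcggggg

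The targeted gene was lower on all knockout arrays. At 17 dpp, the log2 signals of Ip6k1 were 2.38 and 2.48 on the wild type arrays and 1.58 and 1.67 on the knockout arrays. At 26 dpp they were 2.92 and 2.89 on the wild type arrays and 1.55 and 1.49 on the knockout arrays. All log2 signals here are relative to the 75th percentile of the array's own probes, so a value of 0 equals that percentile. Signal of Ip6k1 stayed well above background on every knockout array, and whether its probe lies in the deleted part is unknown. The differences of -0.81 at 17 dpp (SE 0.225, adjusted p = 1.00) and -1.38 at 26 dpp (SE 0.225, adjusted p = 0.536) were larger than the spread between replicates, with unadjusted p of 0.0109 and 0.000753 in limma, but neither passed the adjustment over all probes.

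The second knockout replicate at 26 dpp stood apart from every other array of its age. Replicates correlated at 0.979 to 0.988 over all probes in the other 3 groups and at 0.867 in this one. Its correlation was 0.918 to 0.946 with the younger arrays of both genotypes, but 0.876 and 0.844 with the older wild type arrays, with which knockout replicate 1 correlated at 0.991 and 0.988. The summed signal of 6 elongating spermatid markers, in units of the array's 75th percentile, was 0.466 on this array against 671 on knockout replicate 1, 436 to 1314 in wild type at 26 dpp and 0.357 to 0.400 in wild type at 17 dpp. Round spermatid markers summed to 1.05 against 64.2 on replicate 1, spermatogonial markers to 74.2 against 18.0. Sertoli cell markers summed to 477 against 214, a sum led by Clu. Leydig cell markers (5 genes) summed to 1.02 against 16.4 on replicate 1. They summed to 11.5 to 23.3 in wild type at 26 dpp and 19.8 to 27.7 over both genotypes at 17 dpp, so this array lay below either age. Spermatocyte markers summed to 485, against 411 on replicate 1 and 439 to 443 in wild type, a sum led by Ldhc. Single markers went both ways: Ccna1 had a log2 signal of 1.27 against 3.62 on replicate 1 and Piwil1 2.60 against 3.50, while Sycp3 had 6.54 against 4.94 and Sycp1 5.19 against 4.05. The part of these shifts in the results was not tested. For the members, each comparison that rests on this array is given with and without it. The genotype comparisons of other gene lists and the search for similar profiles are given only with it.

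**Figure D1:**
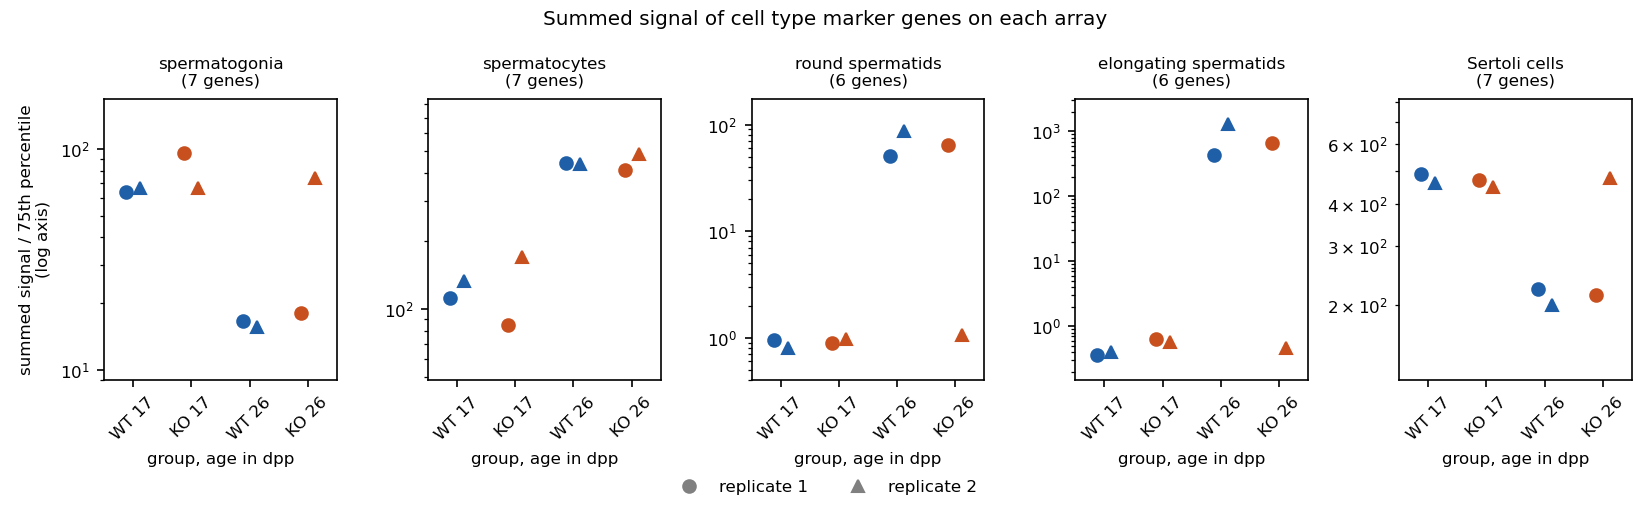
Summed signal of marker genes of 5 testis cell types on each of the 8 arrays (log axis, in units of the array's 75th percentile). Circles are replicate 1 and triangles replicate 2; on the second knockout array of 26 dpp the round and elongating spermatid markers sum to 1.05 and 0.466, the level of 17 dpp, while the spermatocyte markers sum to 485.

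The labelled tissue was borne out by spermatocyte markers, all 7 of which were well above background on all arrays. The 5 epididymis markers were well above background on both wild type arrays of 17 dpp, where they summed to 4.94 to 20.6, and summed to 0.0303 to 0.0585 on the other 6 arrays. Adipocyte markers reached 4.51 to 240 in wild type at 17 dpp and 1.16 to 28.2 elsewhere. Wild type at 17 dpp enters the age comparison and the knockout comparison at 17 dpp, and the part of this tissue in them was not tested. RNA was measured in whole testes, so fewer cells of a type and less RNA per cell cannot be told apart.

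In wild type, 11 of the 12 probes had higher signal at 26 than at 17 dpp on both arrays, and Tdrkh had lower signal. Tdrd6, Tdrd7, Tdrd1 and Tdrd9 rose, that is, 4 of 12 probes passed limma at an adjusted p under 0.05, all of them upward and each for a different gene. Of all 37810 probes, 44.1% passed, 17.6% as higher and 26.6% as lower at 26 dpp. The groups did not overlap, with the older higher, for 30.4% of all probes and, with the older lower, for 57.2%. The median difference over the 12 probes was 1.11, and that over all probes was -0.53. At an unadjusted p under 0.05, 9 of the 12 member probes and 57% of all probes passed.

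These 4 calls needed all 4 wild type arrays: without any 1 of them, limma called 0 of the 12 probes and 3 or 4 passed at an unadjusted p under 0.05. The calls over all probes then fell to between 0 and 1020, in a fit where the lone array is assumed to vary like the other groups. Without either knockout array of 26 dpp, 9 of the 12 were called beside 68.4% of all probes, and without either knockout array of 17 dpp 6 were, beside 26.4%. With the wild type arrays fitted alone, 11 were called beside 69.5% of all probes. With normexp background correction, 8 were called after 75th percentile scaling (43% of all) and 5 after quantile scaling (45.4% of all). The 8 included all 4 calls of the main fit, and the 5 included 3 of them.

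**Figure D2:**
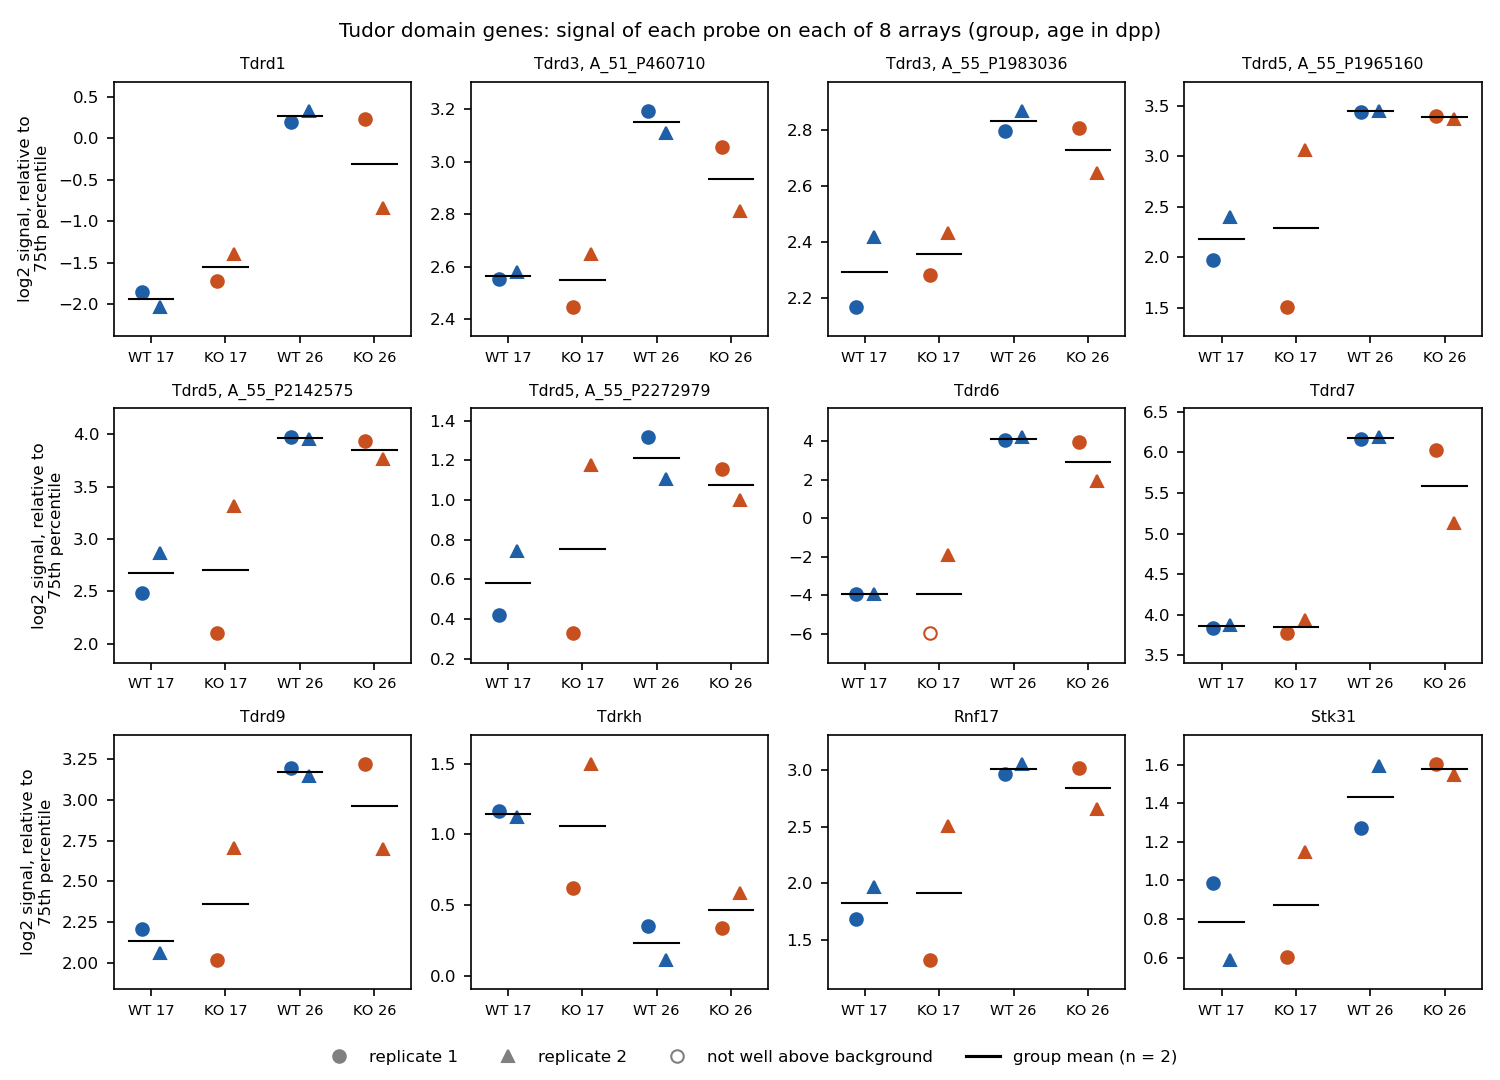
Log2 signal of each of the 12 probes, relative to the array's 75th percentile, on the 8 arrays by genotype and age. Circles are replicate 1, triangles replicate 2, horizontal lines group means (n = 2), and the open circle marks Tdrd6 not well above background; on 11 probes both wild type arrays of 26 dpp lie above both of 17 dpp, and Tdrkh lies below.

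Tdrd6, Tdrd7 and Tdrd5 are known as scaffold genes of the chromatoid body of round spermatids. Tdrd6, which holds the chromatoid body together, had log2 signals of -3.93 and -3.94 in wild type at 17 dpp and of 4.06 and 4.20 at 26 dpp. On the knockout arrays it was at -5.97 and -1.92 at 17 dpp, the first of these not well above background, and at 3.94 and 1.94 at 26 dpp. Both arrays of 26 dpp lay far above both of 17 dpp in each genotype, and the 2 knockout arrays of an age lay further apart than the wild type arrays. The wild type difference was 8.07 (SE 1.30, 269-fold, adjusted p = 0.0104, limma). With normexp background correction it was 6.46 after 75th percentile scaling and 6.49 after quantile scaling. Its size thus depends on how the low signal of 17 dpp is corrected. In order of level, the groups ran from 17 dpp in either genotype, which overlapped, through knockout to wild type at 26 dpp.

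Tdrd7, known to restrain transposon translation and to shape the chromatoid body, read 3.84 and 3.87 on the wild type arrays and 3.77 and 3.93 on the knockout arrays of 17 dpp. On those of 26 dpp it read 6.17 and 6.18 in wild type, then 6.03 and 5.13 in knockout. The groups of 17 dpp overlapped, those of 26 dpp did not, and the second knockout array was the lowest of its age. In wild type Tdrd7 rose by 2.32 (SE 0.339, 4.99-fold, adjusted p = 0.00871, limma), with an SD of 0.0241 and 0.0125 at the 2 ages (n = 2).

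The Tdrd5 probes varied more among arrays of one age. Tdrd5, needed for spermatid development and for piRNA production, was at 2.49 and 2.87 in wild type at 17 dpp and at 3.97 and 3.95 at 26 dpp on probe A_55_P2142575. The probe that shares 40 of its bases, A_55_P1965160, gave 1.97 and 2.40 and then 3.44 and 3.45. The ages did not overlap on either probe, with differences of 1.28 (SE 0.426, adjusted p = 0.0510) and 1.26 (SE 0.506, adjusted p = 0.0827), so neither passed in limma. The probe at the other site, A_55_P2272979, gave the smaller difference of 0.63 (adjusted p = 0.169) from 0.42 and 0.74 to 1.32 and 1.11. All 3 probes pointed the same way, but on 2 of them the ages differed by less than the 2 knockout arrays of 17 dpp did from each other: A_55_P1965160 (1.55) and A_55_P2272979 (0.85).

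Tdrd1, Tdrd9 and Tdrkh are known from the piRNA pathway itself, in spermatogonia and spermatocytes as well as in fetal germ cells. Tdrd1, a scaffold that binds the PIWI protein Piwil2, read -1.85 and -2.03 on the wild type arrays and -1.72 and -1.39 on the knockout arrays of 17 dpp. On those of 26 dpp it read 0.20 and 0.33 in wild type, then 0.23 and -0.84 in knockout. Knockout was above wild type on both arrays at 17 dpp, and at 26 dpp the first knockout array lay between the wild type arrays and the second below them. The wild type rise was 2.21 (SE 0.393, 4.61-fold, adjusted p = 0.0125, limma).

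Tdrd9, a helicase with a Tudor domain that acts with Piwil4 in transposon silencing, was at 2.21 and 2.06 in wild type at 17 dpp and at 3.19 and 3.14 at 26 dpp. Its knockout arrays read 2.02 and 2.70 at 17 dpp and 3.22 and 2.70 at 26 dpp. Wild type ages were separate, whereas the second knockout arrays of the 2 ages read alike. The wild type rise of 1.03 (SE 0.332, 2.05-fold) had an adjusted p of 0.0466 in limma, the weakest of the 4 calls. This call did not hold under 9 of 17 alternative settings.

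Tdrkh, which anchors PIWI proteins at mitochondria for the trimming of piRNAs, ran the other way. It was at 1.17 and 1.12 in wild type at 17 dpp and at 0.35 and 0.11 at 26 dpp, and on the knockout arrays at 0.62 and 1.50 and then at 0.34 and 0.58. Lower signal at 26 dpp was thus seen on both wild type arrays without overlap, and the wild type difference of -0.92 (SE 0.347, adjusted p = 0.0713, limma) did not pass. Since the median of all probes was itself at -0.53, Tdrkh lay -0.38 from it. Under normexp with quantile scaling that median was -0.26, and Tdrkh lay -0.58 from it, so its sign held in both cases.

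Rnf17 and Stk31 join a Tudor domain with another fold. Rnf17, a RING finger protein that forms granules of its own and is needed in round spermatids, was at 1.69 and 1.97 in wild type at 17 dpp and at 2.97 and 3.06 at 26 dpp. The ages did not overlap, and the difference of 1.19 (SE 0.424, adjusted p = 0.0613) did not pass in limma. Stk31, a protein with a kinase-like domain found in germ cells, was at 0.98 and 0.59 and then at 1.27 and 1.59, a difference of 0.64 (SE 0.306, adjusted p = 0.122). For Stk31 the gap between ages was smaller than the distance between the 2 wild type arrays of either age.

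Tdrd3, the broadly expressed member, was at 2.55 and 2.58 in wild type at 17 dpp and at 3.19 and 3.11 at 26 dpp on probe A_51_P460710. Probe A_55_P1983036, a few bases away, gave 2.17 and 2.42 and then 2.80 and 2.87. The differences of 0.59 and 0.54 (adjusted p = 0.0859 and 0.105, limma) were alike on both probes and among the smallest of the 12. Relative to the median of all probes they were 1.12 and 1.07.

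**Figure D3:**
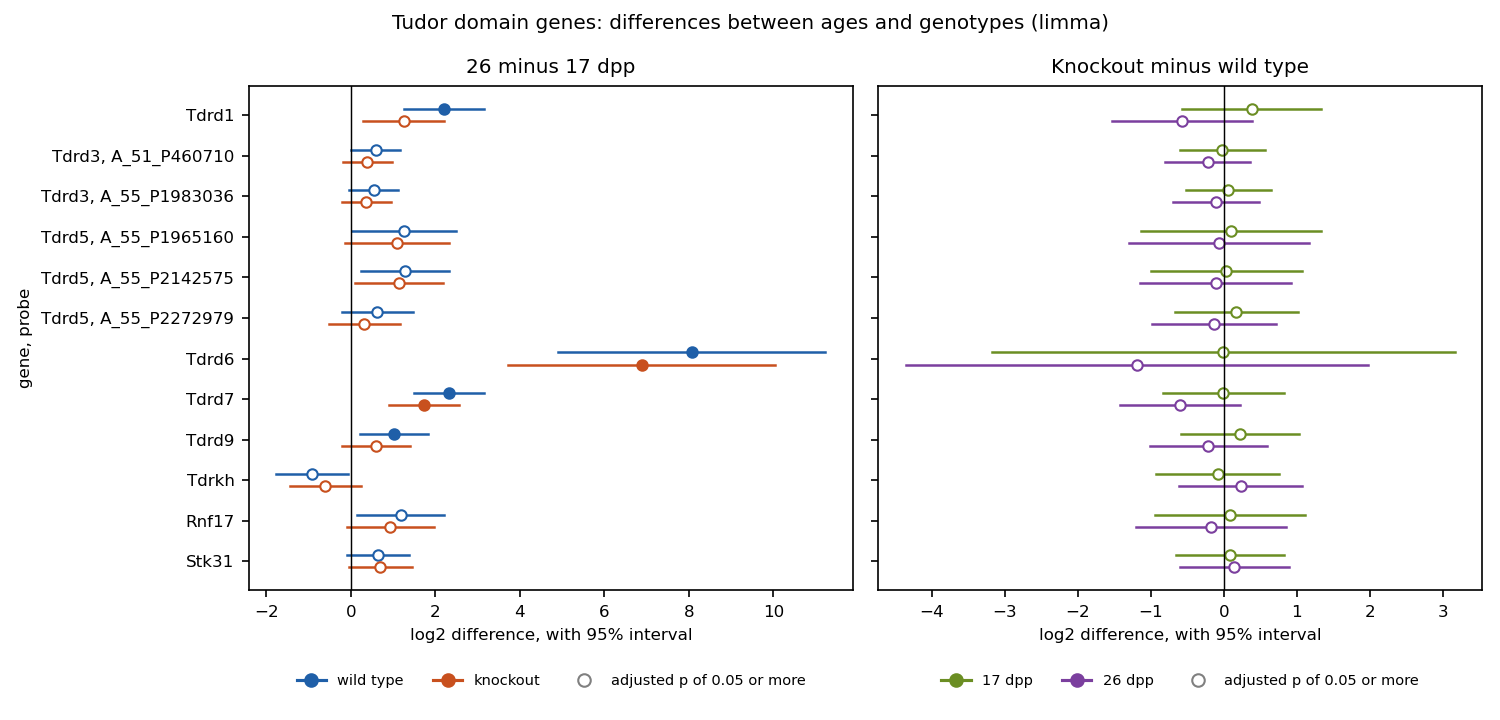
Log2 differences of the 12 probes between 26 and 17 dpp in each genotype (left) and between knockout and wild type at each age (right). Bars are 95% intervals from limma, unadjusted, and filled points passed at an adjusted p under 0.05: Tdrd1, Tdrd6, Tdrd7 and Tdrd9 in wild type, Tdrd6 and Tdrd7 in knockout, and none between genotypes.

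In knockout, Tdrd6 and Tdrd7 rose between 17 and 26 dpp, and the other 10 probes did not pass. These 2 of 12 calls, both upward, compare with 14.8% of all probes, 6.93% as higher and 7.87% as lower. The difference was 6.88 for Tdrd6 (SE 1.30, 118-fold, adjusted p = 0.0268, limma) and 1.73 for Tdrd7 (SE 0.339, 3.32-fold, adjusted p = 0.0284). Only 1 of the 2 knockout arrays of 17 dpp measured Tdrd6 well above background, so the size of its difference here, with or without other arrays, is uncertain. Tdrd1 had a difference of 1.25 (SE 0.393, adjusted p = 0.0804). The ages did not overlap for 9 probes as higher, beside 20.9% of all probes, and for Tdrkh as lower, beside 39.3%. The median over the 12 probes was 0.82 against -0.36 over all probes, and 4 of the 12 passed at an unadjusted p under 0.05 against 34.5% of all.

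Without the second knockout array of 26 dpp, 3 member probes were called in knockout and 58.7% of all probes. Tdrd1 then rose by 1.79 (adjusted p = 0.00348), Tdrd6 by 7.88 (adjusted p = 0.00988) and Tdrd7 by 2.18 (adjusted p = 0.00141, limma). The knockout calls also moved with other arrays: without any 1 wild type array, or without knockout replicate 1 of 17 dpp, limma called 0 of the 12, with 3 at an unadjusted p under 0.05 each time, and between 0% and 0.177% of all probes. Without knockout replicate 2 of 17 dpp 1 was called (3.53% of all probes), and without replicate 1 of 26 dpp 1 was (18.5%).

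Between genotypes at 17 dpp, no member probe passed the test. Limma called 0 of the 12 probes, 0 also at an unadjusted p under 0.05, beside 0.0688% and 1.49% of all probes. Differences of knockout minus wild type ran from -0.08 for Tdrkh to 0.38 for Tdrd1, with adjusted p-values of 1.00. Tdrd1 was the only probe of the 12 whose groups did not overlap, higher in knockout, as 17.2% of all probes were (11.5% as lower). The 95% intervals were wide: the Tdrd1 difference could lie between -0.57 and 1.34, and that of Tdrd6 between -3.17 and 3.16.

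The median member probe differed more between the 2 knockout arrays of 17 dpp than the median of all probes did, and 3 of the 12, those of Tdrd7 and Tdrd3, differed less. Knockout replicate 2 was above replicate 1 on 12 of 12 probes, as on 43.6% of all probes, and above both wild type arrays on 12 of 12, as on 37.5% of all. Knockout replicate 1 was below both wild type arrays on 9 probes, as on 29.6% of all. For 9 of the 12 probes, both held at once, against 12.7% of all probes. Since members share these arrays, the 12 probes are no independent observations of this.

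Tdrd6 had the widest gap between these knockout arrays, 4.05 on the log2 scale, and the lower value was not well above background. The Tdrd5 probes differed by 1.55, 1.21 and 0.85, Rnf17 by 1.18, Tdrkh by 0.88 and Tdrd9 by 0.68. Tdrd7 and Tdrd3 differed by only 0.16 and by 0.20 and 0.15. Over the 12 probes the median gap was 0.77, against 0.27 over all probes, and in wild type at 17 dpp it was 0.21 for the members and 0.22 for all.

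Spermatocyte markers moved with this spread: they summed to 84.6 on knockout replicate 1 and to 170 on replicate 2, with wild type at 112 and 133. Ldhc read 1.25 and 5.57 on these knockout arrays and Piwil1 -2.29 and 1.15 on the log2 scale. Sycp3 read 5.53 and 5.82 and Mybl1 -2.59 and -2.61. Spermatogonial markers ran the other way between the knockout arrays, at 96.5 and 66.6, a sum led by Stra8. Wild type was at 63.8 and 66.5, so only knockout replicate 1 departed from it. The part of these markers in the spread of the members was not tested.

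**Figure D4:**
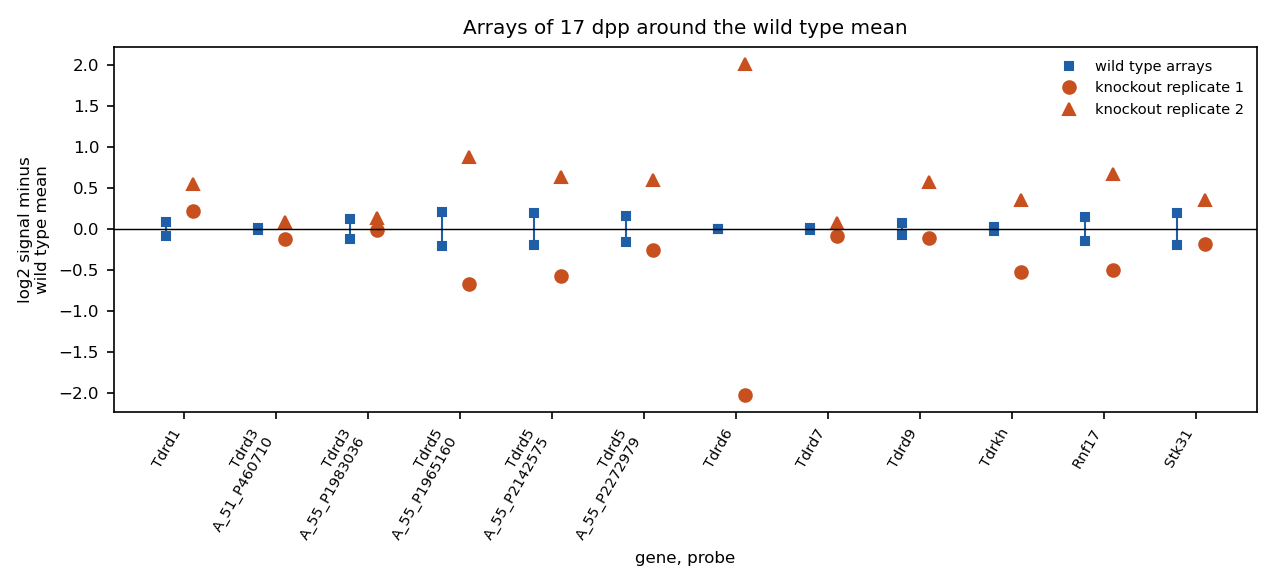
Log2 signal of each probe on the arrays of 17 dpp minus the wild type mean of that age. Squares are the wild type arrays, circles knockout replicate 1 and triangles knockout replicate 2; the triangle is the highest value for all 12 probes, and the circle is the lowest for 9.

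Between genotypes at 26 dpp, no member probe passed either. Limma called 0 of the 12, and 0 at an unadjusted p under 0.05, beside 0.00793% and 2.85% of all probes. Differences ran from -1.19 for Tdrd6 (95% interval -4.36 to 1.97) to 0.23 for Tdrkh, and 10 of the 12 were below 0. Tdrd7 differed by -0.59 (SE 0.339) and Tdrd1 by -0.57 (SE 0.393), each with an adjusted p of 0.536. On 5 probes knockout lay below wild type without overlap, as on 14.3% of all probes (18.4% as higher): those of Tdrd6, Tdrd7, 2 of Tdrd5 and 1 of Tdrd3.

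These differences rested on the second knockout array. Without it, they ran from -0.19 for Tdrd6 to 0.17 for Stk31, and 0 of 12 were called. Without the first knockout array, which left only the array that stands apart, Tdrd1 differed by -1.11 and Tdrd7 by -1.04. The difference between the knockout effects of the 2 ages passed for 0 of the 12 and for 0% of all probes. At an unadjusted p under 0.05 it passed for 0 and 2.06%, and the lowest adjusted p among the members was 0.791 (limma). It ran from -1.19 to 0.32 over the 12 probes with all arrays, and from -0.42 to 0.19 without knockout replicate 2 of 26 dpp. Without knockout replicate 1 of 26 dpp, it was -1.49 for Tdrd1 and -1.04 for Tdrd7.

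Each knockout array of 26 dpp can be placed between the wild type mean of 17 dpp, set to 0%, and that of 26 dpp, set to 100%. Replicate 1 lay at 83.8% to 127% for the 12 probes. Replicate 2 lay at 49.8% for Tdrd1, 54.7% for Tdrd9, 55.1% for Tdrd7 and 72.8% for Tdrd6. It lay at 93.8%, 85.0% and 66.5% on the 3 Tdrd5 probes, at 70.3% for Rnf17 and at 61.4% for Tdrkh. Stk31 stood above the older wild type mean at 118%, though between the arrays of that group, and Tdrd3 was at 42.2% and 65.8%. Over the 6638 probes called higher in wild type, the medians were 97.3% for replicate 1 and 48.9% for replicate 2.

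Replicate 2 was lower than replicate 1 on 11 of the 12 probes, as on 41.3% of all probes. The gap was 2.01 on the log2 scale for Tdrd6, 1.07 for Tdrd1 and 0.89 for Tdrd7, but 0.03 for Tdrd5 on A_55_P1965160. Tdrkh was higher on replicate 2 by 0.24. Spermatid markers on this array were at the level of 17 dpp, as given above, and their part in these positions was not tested.

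**Figure D5:**
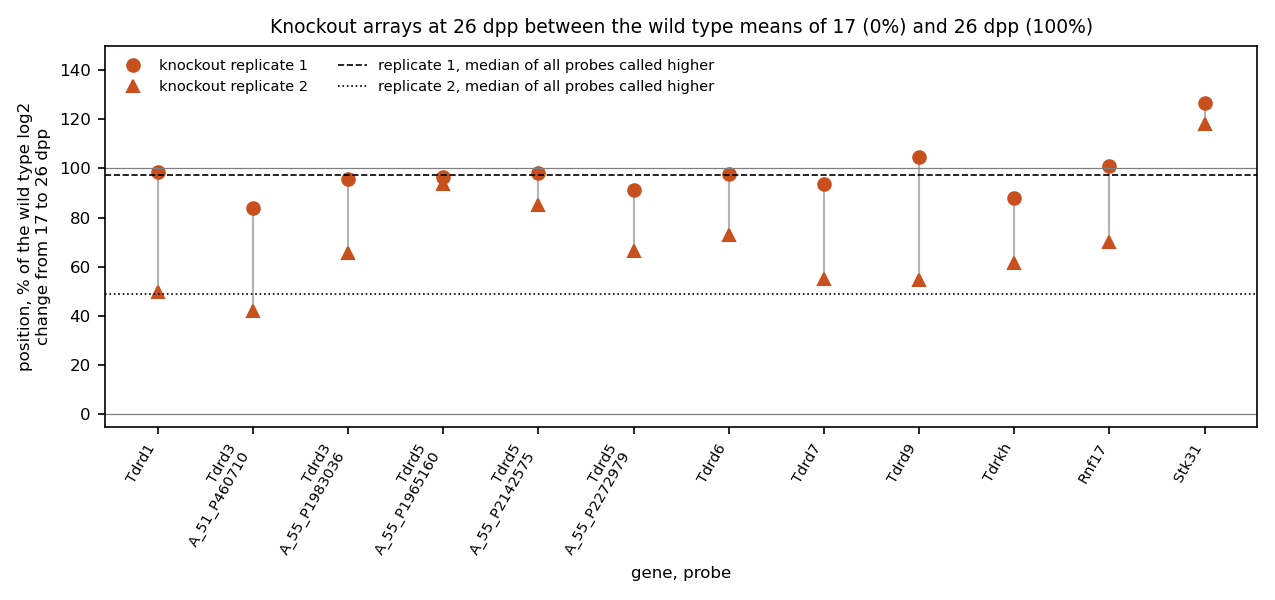
Position of the 2 knockout arrays of 26 dpp for each probe, in percent of the log2 change of wild type from 17 dpp (0%) to 26 dpp (100%). Circles are replicate 1 and triangles replicate 2; dashed and dotted lines are the medians of 97.3% and 48.9% over all probes called higher in wild type, and the triangles run from 42.2% to 118%.

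Other proteins with Tudor domains, most of them chromatin readers of somatic and germ cells, were compared by the probe of highest mean signal of each gene. Of 22 listed genes 21 were tested. In wild type 2 rose and 9 fell between 17 and 26 dpp, beside 17.6% and 26.6% of all probes. Their median difference was -1.11 beside the -0.53 of all probes. Tdrd12, a Tudor domain gene counted with the piRNA pathway genes below, rose by 1.10 (adjusted p = 0.0438, limma, named after its value was seen). Phf1, a Polycomb partner, rose by 1.67 (adjusted p = 0.0180, limma) and Sgf29, a reader of histone methylation, by 1.26 (adjusted p = 0.0493). Spin4 fell by 2.38, Phf19 by 1.77, Akap1, which anchors a kinase at mitochondria, by 1.76, and Spin1 by 1.74 (adjusted p = 0.0245, 0.0198, 0.0173 and 0.0284). In knockout 1 rose and 2 fell, beside 6.93% and 7.87% of all probes. Phf1 rose by 1.51, while Snd1 fell by 1.42 and Kdm4b by 1.43 (these 2 named after their values were seen). Between genotypes limma called 0 of 21 at either age, 0 also at an unadjusted p under 0.05.

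Other genes of the piRNA pathway and of germ granules were called in both directions in wild type. Of 28 listed genes 27 were tested, 11 rose and 6 fell, beside 17.6% and 26.6% of all probes, with a median of 0.00. Piwil1, the PIWI protein of pachytene spermatocytes and round spermatids, rose by 3.98 (adjusted p = 0.0320, limma), Adad1 by 3.52, Gtsf1 by 2.84 and the translation regulator Boll by 2.53. Piwil4, a PIWI protein of fetal germ cells, fell at least 5.94-fold, a bound, because neither older wild type array had it well above background. Dicer1, the nuclease that makes microRNAs, fell by 2.03, Tex19.1 by 1.97 and Dazl by 1.62. In knockout 7 rose and 0 fell, beside 6.93% and 7.87% of all probes. At an unadjusted p under 0.05 it was 11 and 2, beside 34.5% of all probes in either direction. Between genotypes limma called 0 of 27 at either age. At an unadjusted p under 0.05 it was 0 at 17 dpp and 1 at 26 dpp, beside 1.49% and 2.85% of all probes. That gene was Piwil4 (adjusted p = 0.536, limma), at -4.87 and -3.63 in knockout, the higher value on the array that stands apart. In wild type of 26 dpp it was at -5.30 and -5.74, neither well above background. Without the second knockout array of 26 dpp, the median difference between ages in knockout was -0.06 for these 27 genes. It was -1.01 for the other 21 Tudor domain genes and -0.56 for all probes.

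Genes of most similar profile were sought among 21079 genes well above background on all 8 arrays, by the root mean square difference of the 8 log2 values after each gene's own mean was taken off. For Rnf17 the nearest of all was another member, Tdrd5, at 0.103, and for Tdrd5 Rnf17 came second after 9330102E08Rik, at 0.0735, and before Khdrbs3, at 0.115. Rnf17 was next followed by Nek4 at 0.106 and Zfp42 at 0.117. Tdrd7 was nearest to K230010J24Rik (0.0620), Fam151b (0.0721) and Pgp (0.0789), and Tdrd1 to Ovol1 (0.103), Cog6 (0.104) and Grina (0.104). Stk31 was nearest to BC088983 (0.0614), Ndufaf7 (0.120) and Ube2t (0.122), and Tdrd3 to Hspbp1 (0.0568), an unnamed transcript and Atxn10 (0.0610).

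Tdrkh was nearest to 3 unnamed transcripts (0.0771 to 0.0929), and its nearest member was Tdrd3 at 0.677. Tdrd6 was not placed, since 1 array was not well above background. The 8 arrays behind each distance are the same for all genes, so these distances describe likeness on these arrays and carry no test.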

How the data were processed

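Arrays were scanned and read with Agilent Feature Extraction 11.5.1.1, per the file headers and the submitters' processing notes; probe positions are on mm9, per the file headers. RNA was extracted with TRIZOL and labelled from an oligo-dT primer, per the labels' protocols. The processed, mean and local background signals were deposited as linear intensity, 1 array a file, and were not scaled against other arrays. The authors also deposited log2 values with no stated scale and centring; each column followed the log2 processed signal minus the array's 75th percentile with a correlation of 0.999906 to 0.999946, with no centring per probe, and the column medians were -3.69 and -3.69 (wild type) and -3.67 and -3.63 (knockout) at 17 dpp, and -3.59 and -3.64 and then -3.62 and -3.84 at 26 dpp. How these combined spots is unknown. They served as an alternative.

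From the scanner files, spots flagged as outliers (103 to 200 an array) were dropped, spots of a probe were averaged, and log2 of the processed signal was taken minus log2 of its 75th percentile (416 to 628). No spot was saturated, and 58.8% to 64.7% of probes were well above background per array. Probes entered the test if 1 or more groups had both arrays well above background; 94 of these were dropped for missing a value on an array after outlier spots were removed. Differences were tested two-sided with limma 3.58.1 in R 4.3.3 (data.table, version 1.17.8) over all 37810 probes, with 1 mean per group over 8 arrays, 4 residual degrees of freedom and Benjamini-Hochberg adjustment; an adjusted p under 0.05 is "called". The 5 comparisons share arrays. Only 2 arrays per group limit the precision. The p-values rest on a spread pooled over the 4 groups, which includes the knockout array of 26 dpp that stands apart. Whether that spread is one between single animals is unknown. With 2 arrays a group and only 2 numbers, replicate numbers were not taken as pairs. The script was tested on simulated data, in which 200 of 37810 probes were changed in wild type at 26 dpp. It called 0% of those changed by 1 or 2 on the log2 scale. Of those changed by 4 it called 83%, with 11 false calls. All other simulated probes were left without a difference, while 44.1% of probes were called between ages in wild type. The adjustment was thus stricter in the simulation than in that comparison, in which Tdrd9 was called at 1.03. The simulated shares therefore do not give the power of the age comparison. With 2 arrays a group and wide intervals, a probe that did not pass is not shown to be unchanged.

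Every probe of the members is accounted for. Other genes were named by rule: up to 4 called genes per list and direction with the largest wild type age difference, by each gene's brightest probe, and the 3 genes nearest in profile to each member (those of Tdrd9 are not reported here). Members and lists were chosen with earlier results of these data known. Listed genes with no probe of that name (Tdrd15, Btbd18 and the Leydig cell marker Insl3) were not analysed here. Genes of the lists were matched by name, 4 through an older symbol. Promoter windows are RefSeq's for GRCm38.p6.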

Additional observations from a re-analysis of the deposited data

How the results depend on the processing

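Limits: 2 arrays per group, 4 residual degrees of freedom and 1 array that stands apart set the width of every interval, and signal not well above background limited Tdrd6 on 1 array. The number of the 12 probes called in wild type between ages was 4; it was 8 with normexp correction and 75th percentile scaling, 11 with only the wild type arrays fitted, and 0 to 9 with 1 array left out. In knockout it was 2. Among the 11 probes well above background on all 8 arrays it was 1, beside 18.4% of all such probes. With only the knockout arrays fitted it was 0, beside 0% of all probes (2 at an unadjusted p under 0.05, limma). It also moved with 1 array left out. The cause was not tested. Between genotypes at 26 dpp, and for the difference of the knockout effects, it was 0. It was above 0 only where the array that stands apart was left as the sole knockout array of 26 dpp. At 17 dpp it was 0 under all 17 alternatives.

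With the replicate number as a block, 3 probes were called in wild type, beside 33.6% of all probes. In knockout 0 were called, beside 5.2% of all (4 at an unadjusted p under 0.05, limma). Deviations of same-numbered arrays correlated at 0.108, -0.0718, 0.0316, -0.0131, -0.108 and -0.372 over the 6 pairs of groups, so the numbers were not read as pairs.

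Signs that turned under another scaling were those of differences near 0 between genotypes at 17 dpp: Tdrd5 on A_55_P2142575 to -0.00663 with normexp correction, and Tdrd6 to 0.279 and 0.262 with normexp and 75th percentile or quantile scaling. Left-out arrays gave ranges that cross 0 at 17 dpp for Rnf17 (-0.51 to 0.68), Stk31 (-0.18 to 0.36), Tdrd3 (-0.118 to 0.0822 on A_51_P460710 and -0.0609 to 0.188 on A_55_P1983036), Tdrd5 (-0.67 to 0.88 on A_55_P1965160, -0.57 to 0.64 on A_55_P2142575 and -0.25 to 0.60 on A_55_P2272979), Tdrd6 (-2.03 to 2.02), Tdrd7 (-0.0856 to 0.0739), Tdrd9 (-0.12 to 0.57) and Tdrkh (-0.52 to 0.35), at 26 dpp for Rnf17 (-0.353 to 0.0109), Stk31 (-0.0170 to 0.307) and Tdrd9 (-0.467 to 0.0497), in the knockout age comparison for Tdrd5 on A_55_P2272979 (-0.10 to 0.75), and in the difference of knockout effects for Tdrd6 (-3.21 to 0.84).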
